A study of Homo sapiens with 12 samples.

Results

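The net state of SKBR-3 cells after FOXA1 knockdown and HER2 kinase inhibition together was compared with that of untreated control cells by RNAseq in 6 of the 12 samples of the series. The 3 combined samples had received a FOXA1 siRNA pool and then 300 nM lapatinib for 24 h, and the 3 control samples had received a non-targeting (NT) siRNA pool and then DMSO for 24 h. The other 6 samples, 3 with NT siRNA and lapatinib and 3 with FOXA1 siRNA and DMSO, were used to see which genes moved with either treatment alone. Both siRNA pools were given for 48 h before the drug by the labels, whereas the methods give 24 h. SKBR-3 is an established HER2-amplified, ER-negative breast carcinoma cell line, so every value is from 1 line and the replicates are not described as separate donors or as separate cultures. P-values therefore measure the spread between these samples, which may be partly technical. All 20531 genes of the files were considered, and 13813 reached 10 counts in 1 or more of the 6 samples and were tested.

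HER2, encoded by ERBB2, is a receptor tyrosine kinase that pairs with HER3 (ERBB3) to drive PI3K/AKT and ERK signaling, and lapatinib is a small molecule that blocks the kinase activity of HER2 and EGFR. When AKT signaling falls, FOXO transcription factors move to the nucleus, and ERBB3 is among the genes that rise in response. FOXA1 is a pioneer transcription factor that opens chromatin in luminal breast epithelium and binds at enhancers of luminal genes.

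The expected counts of a control library summed to between 30112796 and 31643469, and those of a combined library to between 29948709 and 31989777, so depth overlapped between the groups. Replicate 2 stood apart in every group: the chi-square of counts between 2 replicates was 12.7 to 18.5 per degree of freedom in pairs that held replicate 2 and 3.75 to 5.94 in the pairs of replicates 1 and 3. Named fold changes that leaving out 1 sample moved by over 1.5 times are given below with and without it. On the first 2 principal components, which held 53.9% and 32.3% of the variance, lapatinib separated the samples on the first and FOXA1 siRNA on the second, and the combined samples lay opposite the controls on both. The summed TPM of ERBB2, GRB7, EPCAM and the keratins KRT8, KRT18 and KRT19 was 14300 to 16300 in the controls and 14700 to 15700 in the combined samples, while CDH1, encoding E-cadherin, did not reach the count minimum. The 6 tested markers moved in both directions, with log2 fold changes from -0.54 to 1.67, so the sum hides changes of single markers. Markers of other cell types were low, and those of fibroblasts did not overlap between the groups. The 5 immune markers summed to 4.7 to 8.31 TPM in the controls and 7.53 to 8.65 in the combined samples, the 3 endothelial markers to 8.35 to 11.7 and 7.1 to 12.1, and the 6 fibroblast markers to 5.03 to 5.82 and 3.45 to 4.26. PTPRC, CD3E, PECAM1, COL1A2, COL3A1, DCN, LUM and PDGFRB did not reach the count minimum in the 6 samples, and the part of such markers in the results was not tested.

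FOXA1 itself was the check of the knockdown. Its normalised count, scaled to the average depth of the 12 libraries, was 8446, 8308 and 8767 in control replicates 1, 2 and 3 and 1642, 1889 and 2384 in the combined samples. FOXA1 was 4.23-fold lower after the combination (log2 fold change -2.08 ± 0.12, SE, n = 3 per group; adjusted p = 2.56e-06 from the quasi-likelihood test of edgeR, adjusted by Benjamini-Hochberg over all genes tested), with no overlap. With FOXA1 siRNA and DMSO it was 1160, 1362 and 1564, and with NT siRNA and lapatinib 12672, 12168 and 13177. The combined samples thus all held more FOXA1 mRNA than the samples with FOXA1 siRNA and DMSO, and less than every sample with NT siRNA. The lapatinib response of FOXA1 did not pass the test of a difference between the siRNAs (interaction -0.04 ± 0.17, 95% interval -0.41 to 0.32, adjusted p = 0.928). The siRNA check measures mRNA only.

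Across the genome, 1376 genes (9.96% of those tested) were called higher and 1200 (8.69%) lower in the combined samples, taking an adjusted p under 0.05 and a change of 1 or more on the log2 scale as a call. With no fold minimum, 4678 (33.9%) were higher and 4488 (32.5%) lower, so at these depths and this spread most genes passed the test in some direction, with small changes included. Of the 2576 called genes, 1032 had a mean normalised count under 100 over the 6 samples. The median log2 fold change of all genes tested was 0.02.

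**Figure D1:**
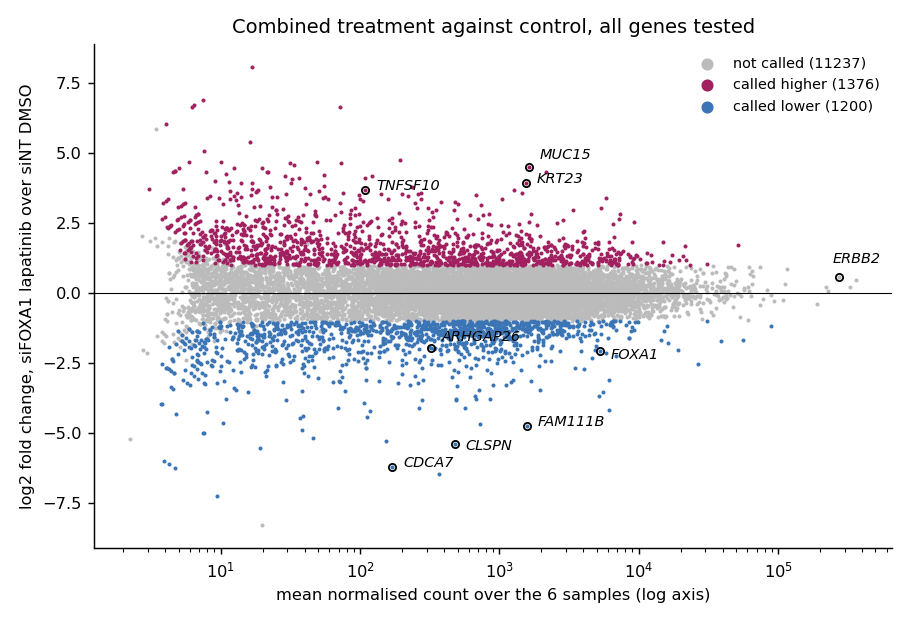
Log2 fold change of each of the 13813 genes tested, combined over control, against its mean normalised count over the 6 samples on a log axis, with called genes in colour and 9 genes circled. Calls lay at every expression level, and ERBB2, among the most abundant transcripts, stood at 0.57.

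The 8 largest increases among called genes with a mean count of at least 100 and no overlap included a mucin, a secretoglobin and 2 keratins. MUC15, a membrane mucin, had 128, 157 and 128 counts in the controls and 2883, 3445 and 2996 in the combined samples (23.1-fold; log2 fold change 4.53 ± 0.11, adjusted p = 2.73e-07). CYP4B1, a cytochrome P450, rose from 208, 178 and 227 to 4501, 3549 and 4193 (20.3-fold). Either treatment alone also raised both genes: log2 fold changes over control were 3.04 with lapatinib and 2.36 with FOXA1 siRNA for MUC15, and 2.63 and 2.42 for CYP4B1. KRT23, a type I keratin, went from 132, 322 and 131 to 2422, 3941 and 2362 (15.2-fold), with replicate 2 the highest in both groups. SCGB1D2, a secretoglobin of breast secretions, was 6.9, 20.8 and 10.6 in the controls and 211, 231 and 248 in the combined samples (18.2-fold). The calcium channel-like TMEM37 was 17.6-fold and the placental transcript PLAC4 13.8-fold higher, and both also rose with either treatment alone.

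KRT9 and TNFSF10 each passed the test with a single treatment. KRT9, a keratin of palm and sole skin, had 13.8, 5.95 and 22.1 counts in the controls, 147, 63.3 and 162 with FOXA1 siRNA alone and 470.1, 196 and 456 in the combined samples (log2 fold change 4.75 ± 0.47, adjusted p = 3.69e-05), and replicate 2 was the lowest of each group. Its change with lapatinib alone was 0.90 ± 0.56 (adjusted p = 0.202). TNFSF10, which encodes the death ligand TRAIL, was 14.8, 19.8 and 13.4 in the controls, 147, 332 and 109 with lapatinib alone and 197, 248 and 162 in the combined samples (12.8-fold, adjusted p = 4.37e-06). The last 2 of these ranges overlapped.

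The 8 largest decreases included genes of DNA replication and its checkpoint. CDCA7, a nuclear protein gene induced by E2F1 and MYC, fell from 381, 263 and 366 to 6.2, 4.8 and 2.05 (73.7-fold lower; log2 fold change -6.20 ± 0.29, adjusted p = 1.12e-06). CLSPN, the checkpoint mediator claspin, fell from 1100, 648 and 1056 to 30.0, 17.3 and 17.4 (42.4-fold lower), and FAM111B, a protease gene expressed in the cell cycle, from 3401, 2078 and 3615 to 108, 104 and 123 (26.6-fold lower). In all of them lapatinib alone had a log2 fold change of -4.32 or lower, and FOXA1 siRNA alone one between -0.86 and -0.74. CNIH2, an auxiliary protein of AMPA receptors, was 39.3-fold lower and the ETS factor gene ETV4, a target of ERK signaling, 18.7-fold lower. MCM10, which is needed to start replication forks, was 25.4-fold lower.

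The remaining pair of large decreases had other patterns. TARP, transcribed from within the T cell receptor gamma locus, had 779, 509 and 894 counts in the controls and 6.2, 10.6 and 7.17 in the combined samples (log2 fold change -6.45 ± 0.30, adjusted p = 1.21e-06). Its level with FOXA1 siRNA and DMSO was 6, 10.2 and 10.5 and with NT siRNA and lapatinib 831, 529 and 840.3, so it was low in all 6 samples with FOXA1 siRNA. The gene overlaps the receptor segments, and its counts are uncertain where these share reads. PRKAR2B, a regulatory subunit of protein kinase A, had 204, 180.5 and 259 counts in the controls, 271, 100.4 and 294 with lapatinib alone, 91.9, 62.3 and 62.8 with FOXA1 siRNA alone and 15.5, 2.88 and 11.3 in the combined samples. Its log2 fold change was 0.07 ± 0.35 with lapatinib (adjusted p = 0.879), -1.56 ± 0.20 with FOXA1 siRNA and -4.41 ± 0.36 with both. The lapatinib response differed between the siRNAs by -2.92 ± 0.65 (interaction adjusted p = 0.0194), and the lowest sample was again replicate 2.

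The HER2 family genes and the luminal genes that the study follows were described by 3 patterns in the combined samples, and a gene can meet more than 1 of them. In the first, a rise with lapatinib and a fall with FOXA1 siRNA left the combined level near the control. ERBB3 had 10177, 11440 and 10251 counts in the controls, 23117, 26463 and 24188 with lapatinib, 4505, 4747 and 4387 with FOXA1 siRNA and 9001, 10332 and 9474 with both. The combined and control ranges overlapped (log2 fold change -0.12 ± 0.07, 95% interval -0.28 to 0.04, adjusted p = 0.166), while the single changes were 1.23 and -1.21. XBP1, a factor of the unfolded protein response and of secretory cells, had 25522, 28533 and 27832 counts in the controls and 21727, 22092 and 27220 with both (log2 fold change -0.18 ± 0.09, adjusted p = 0.114), after 1.34 with lapatinib and -1.36 with FOXA1 siRNA. TOX3, an HMG-box factor, was 148, 164 and 180.2 and 166, 138 and 228 (log2 fold change 0.14 ± 0.19, adjusted p = 0.525), after 1.73 and -1.54. None of these 3 genes passed the interaction test (adjusted p = 0.466, 0.628 and 0.965).

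In the second pattern the lapatinib response itself was smaller with FOXA1 siRNA. ERBB2 had 210948, 249125 and 211257 counts in the controls, 442704, 428653 and 458418 with lapatinib, 203306, 214885 and 197295 with FOXA1 siRNA and 324585, 322236 and 334460 with both. The combined samples all exceeded the controls (1.49-fold; log2 fold change 0.57 ± 0.07, adjusted p = 0.000139), and all lay under the samples with lapatinib alone. The interaction was -0.31 ± 0.08 (adjusted p = 0.0424), and it missed the threshold in 10 of the 12 fits that left out 1 sample (adjusted p up to 0.105). GATA3, a luminal master regulator, had 2828, 2794 and 2832 counts in the controls, 5245, 4339 and 5558 with lapatinib, 2689, 2792 and 2908 with FOXA1 siRNA and 2844, 2690 and 3165 with both. Its rise of 0.86 with lapatinib was thus 0.06 in FOXA1 siRNA cells (interaction -0.79 ± 0.12, adjusted p = 0.00269), although FOXA1 siRNA alone gave 0.00 ± 0.05. VTCN1, the immune checkpoint ligand B7-H4, had 9832, 9723 and 10480 counts in the controls and 6171, 5707 and 5990 with both (log2 fold change -0.72 ± 0.05, adjusted p = 5.67e-06; interaction -0.66 ± 0.12, adjusted p = 0.00616).

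In the third pattern the gene ended higher after both treatments. ELF3, an epithelial ETS factor, went from 12514, 11983 and 11910 to 29468, 29996 and 29491 (log2 fold change 1.32 ± 0.04, adjusted p = 2.73e-07), and FOXO3 from 1469, 1321 and 1383 to 4597, 4278 and 4294 (1.69 ± 0.06, adjusted p = 4e-07). Both genes had log2 fold changes close to these with lapatinib alone, 1.35 and 1.88. PTK6, a non-receptor kinase of epithelial cells, rose 2.31-fold (adjusted p = 4.98e-05) after 0.74 with lapatinib and 0.57 with FOXA1 siRNA, and the collagen receptor kinase DDR1 rose by 0.80 ± 0.06 on the log2 scale, under the fold minimum. FOXO3 and DDR1 also met the second pattern, with interactions of -0.37 ± 0.10 (adjusted p = 0.0456) and -0.24 ± 0.07 (adjusted p = 0.0453). These calls were lost in 11 and 10 of the 12 fits without 1 sample. MYC had 6073, 6276 and 6137 counts in the controls, 4216, 4787 and 3913 with lapatinib, 10143, 10331 and 10878 with FOXA1 siRNA and 10419, 10652 and 10314 with both. MYC was therefore 1.73-fold higher than control (adjusted p = 1.94e-06) and its lapatinib response differed between the siRNAs by 0.52 ± 0.09 (interaction adjusted p = 0.00457). The other study genes moved by less than the fold minimum, with log2 fold changes of -0.71 for SPINK8, -0.36 for FOXO1, -0.35 for BAMBI and 0.25 for SPDEF.

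**Figure D2:**
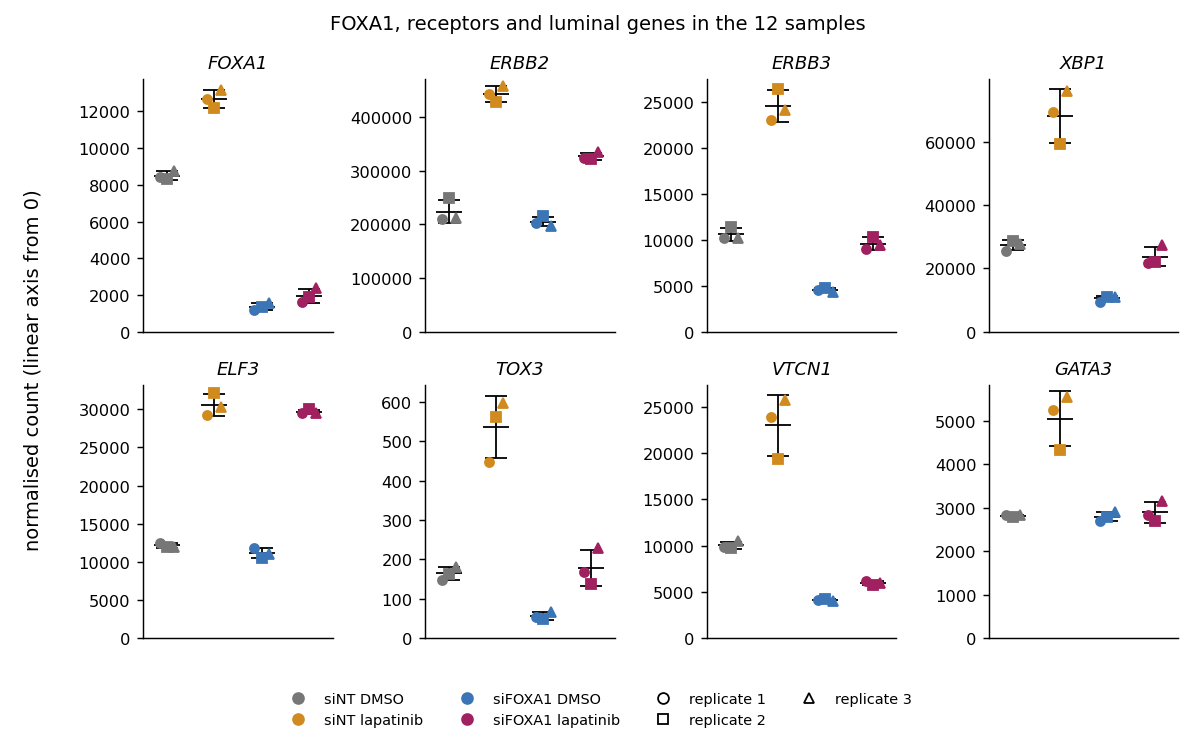
Normalised counts of FOXA1 and 7 receptor and luminal genes in each of the 12 samples, on linear axes from 0, with symbols for replicates and the mean ± SD of each group. ERBB3, XBP1 and TOX3 in the combined samples overlapped the control range, ERBB2 and ELF3 stayed above it, and GATA3 was highest in the 3 samples with NT siRNA and lapatinib.

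The gene lists below were described by how many members were called and by the median of the members tested, beside the 9.96% and 8.69% called among all genes. Counts at any fold stand beside 33.9% higher and 32.5% lower among all genes. The calls of higher genes in the lysosome, ATF4 stress, epithelial junction and BCL2 lists were near the 9.96% of all genes. DNA replication genes were lower throughout: all 26 members passed the test as lower, 22 with the fold minimum, and the median log2 fold change was -1.95. It was -1.85 with lapatinib alone and -0.46 with FOXA1 siRNA alone. RRM2, a subunit of ribonucleotide reductase, had 13434, 8485 and 13057 counts in the controls and 590.0, 791 and 522 in the combined samples (18-fold lower, adjusted p = 1.67e-06). CDC45, part of the replicative helicase, was 17.3-fold lower, and TYMS, the thymidylate synthase that makes dTMP, 11.1-fold lower. TYMS and MCM6, a helicase subunit, fell further with both treatments than with lapatinib: -3.47 against -2.18 and -3.13 against -1.54 on the log2 scale, and their log2 fold changes of combined over lapatinib alone were -1.30 ± 0.16 (adjusted p = 0.000321) and -1.60 ± 0.08 (adjusted p = 7.29e-06). Other members were higher with both treatments than with lapatinib alone, namely the clamp loader subunits RFC3 and RFC4 and the licensing factor CDC6, by 0.85 ± 0.08 (adjusted p = 9.74e-05), 0.30 ± 0.09 (0.0271) and 0.32 ± 0.08 (0.0139). The median of that comparison over the list was -0.02. In the interaction test 5 members were positive and 0 negative, beside 3.99% and 3.2% of all genes. MCM7 lost that call in 7 and POLE in 10 of the 12 fits without 1 sample. Blocking on the replicate number gave 15 positive and 0 negative members, beside 1561 and 1292 of the 14012 genes of the interaction test.

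Of 24 mitosis genes, 13 were called lower and 0 higher, with a median of -1.01 (-1.25 with lapatinib alone and -0.31 with FOXA1 siRNA alone). The median of combined over lapatinib alone was 0.21. MYBL2, a cell cycle transcription factor, fell from 10856, 7864 and 10156 to 686, 876 and 626 (log2 fold change -3.69 ± 0.15, adjusted p = 6.62e-07). CDK1, the mitotic kinase, was 1.07 ± 0.17 higher on the log2 scale with both treatments than with lapatinib alone (adjusted p = 0.00119), and its interaction was 1.5 ± 0.25 (adjusted p = 0.00457). Of the 18 G1 cyclins, CDK inhibitors and related genes tested, 7 were called lower and 1 higher. CCND1, encoding cyclin D1, fell from 8958, 12079 and 9662 to 722, 1232 and 625 (11.7-fold lower, adjusted p = 5.87e-06), and its changes were -2.18 with lapatinib and -1.22 with FOXA1 siRNA. CDK6, a kinase partner of D cyclins, was the member called higher, with 1136, 1240 and 1131 counts in the controls, 1259, 1153 and 864 with lapatinib, 3630, 2913 and 3379 with FOXA1 siRNA and 4847, 4425 and 4340 with both (log2 fold change 1.98 ± 0.07, adjusted p = 4.02e-07). The E2F factors E2F1 and E2F2 had log2 fold changes of -3.45 and -3.77, and the CDK inhibitor genes CDKN1A and CDKN1B had log2 fold changes of 0.43 and 0.48.

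Lists of genes that ERK and FOXO are known to regulate were described next. Of 14 ERK feedback genes tested, 7 were called lower and 0 higher, 1 passed the test as higher under the fold minimum and 6 did not pass it at any fold, with a median of -0.97 (-1.24 with lapatinib alone and 0.37 with FOXA1 siRNA alone). SPRY4, an inhibitor of receptor kinase signaling, fell from 433, 656 and 468 to 32, 45.2 and 30.7 (14.1-fold lower, adjusted p = 2.96e-06), and the phosphatase gene DUSP4 was 2.94-fold lower. SPRY2, of the same family as SPRY4, had a log2 fold change of 0.12 ± 0.24 (adjusted p = 0.666) after -1.93 with lapatinib and 1.15 with FOXA1 siRNA. Of 16 FOXO target genes, 14 passed the test as higher, 6 with the fold minimum, and 0 were lower. The median was 0.82 (0.88 with lapatinib alone and 0.03 with FOXA1 siRNA alone). FBXO32, a muscle-type ubiquitin ligase, rose from 1007, 1169 and 892 to 10092, 11200 and 10562 (10.6-fold, adjusted p = 2.73e-07), and TXNIP, an inhibitor of thioredoxin and glucose uptake, rose 5.49-fold. INSR, the insulin receptor, went from 352, 416 and 336 to 1408, 1431 and 1236 (log2 fold change 1.91 ± 0.10, adjusted p = 1.98e-06).

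Of the 9 HER family receptors and ligands tested, 2 were called higher and 1 lower. EGF rose 2.9-fold (adjusted p = 1.94e-06) and NRG2, a neuregulin, 3.41-fold (adjusted p = 0.0031; 5.17-fold without control replicate 2), while AREG, which encodes amphiregulin, fell by 1.15 from a mean of 41.3 ± 9.72 counts (SD, n = 3). EGFR, the other target of lapatinib, had 6667, 5635 and 5950 counts in the controls and 12169, 10020 and 10223 with both (log2 fold change 0.86 ± 0.09, adjusted p = 4.64e-05). ERBB4 had a log2 fold change of 0.99 ± 0.19, just under the fold minimum, and passed that minimum without combined replicate 2 (1.06) or control replicate 3 (1.16). Of 19 other receptor tyrosine kinases, 2 were called higher and 5 lower. FGFR4, a receptor for fibroblast growth factors, was 3.32-fold lower, with single log2 fold changes of -1.59 for FOXA1 siRNA and -0.64 for lapatinib, and the ephrin receptor EPHA2 was 3.17-fold lower, with 0.12 and -1.97. MET, the HGF receptor, rose by 0.96 ± 0.05 with an interaction of 0.36 ± 0.07 (adjusted p = 0.00782).

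Luminal transcription factors had a median of 0.33 in the combined samples, against 0.88 with lapatinib and -0.14 with FOXA1 siRNA. Of 20 tested, 4 were called higher and 0 lower. KLF5, a Krüppel-like factor of epithelia, rose from 1024, 999.5 and 1116 to 3053, 3164 and 3387 (log2 fold change 1.64 ± 0.06, adjusted p = 5.32e-07), and ELF5, a factor of alveolar cells, rose 2.52-fold. ESR1, the estrogen receptor, was called higher at a low level (14.7 ± 1.55 counts in the controls and 39.5 ± 2.36 in the combined samples, SD, n = 3). In the interaction test 6 of the 20 were negative and 0 positive, against 3.2% negative and 3.99% positive among the 14012 genes of that test. Blocking on the replicate number gave 8 negative and 2 positive, beside 1292 negative and 1561 positive among those 14012 genes. The 6 without the block included GATA3, KLF5, ELF5, EHF and GRHL1, of which ELF5 missed the threshold in 7 and EHF in 4 of the 12 fits without 1 sample. FOXA1 siRNA alone raised KLF5 by 0.595 and ELF5 by 0.94 on the log2 scale. Their combined level over lapatinib alone was 0.04 ± 0.07 (adjusted p = 0.633) and 0.18 ± 0.14 (adjusted p = 0.328), against -0.81 for GATA3, -1.15 for EHF and -0.25 for GRHL1. EHF, another epithelial ETS factor, had 1261, 1586 and 1310 counts in the controls, 3520, 4196 and 3778 with lapatinib and 1522, 1904 and 1771 with both (interaction -0.62 ± 0.14, adjusted p = 0.0215).

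Among 12 luminal secretory genes tested, 6 were called higher and 3 lower. MUC1, the membrane mucin of luminal cells, rose from 1523, 2220 and 1740 to 13117, 9987 and 15135 (7.11-fold, adjusted p = 4.37e-06), SCGB2A2, encoding mammaglobin, rose 5.72-fold (8.68-fold without control replicate 2), and LCN2, a siderophore-binding lipocalin, 4.48-fold. Log2 fold changes with FOXA1 siRNA alone and with lapatinib alone were 2.03 and 0.37 for LCN2 and 0.82 and 2.16 for MUC1. The 3 that fell were TFF1, TFF3 and AGR2, the trefoil factors and a protein disulfide isomerase of secretory cells, and all had a log2 fold change of -1.12 or lower with FOXA1 siRNA alone. AGR2 went from a mean of 4024 ± 394 to 1478 ± 216 counts (log2 fold change -1.42 ± 0.11, adjusted p = 9.68e-06). PIP, prolactin-induced protein, had 33.5, 53.5 and 33.5 counts in the controls, 193, 219.7 and 256 with lapatinib and 30.0, 45.2 and 30.7 with both (interaction -1.93 ± 0.40, adjusted p = 0.0148).

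Of 14 keratins tested, 6 were called higher and 0 lower, and 4 of the 6 had a mean under 100 counts in the controls. KRT15, a basal keratin, was the best measured, with 539.8, 503 and 546 counts in the controls, 562, 595 and 625 with lapatinib, 1199, 1004 and 1417 with FOXA1 siRNA and 2378, 1763 and 2366 with both (log2 fold change 2.06 ± 0.12, adjusted p = 2.65e-06; interaction 0.68 ± 0.18, adjusted p = 0.0461, lost in 9 of the 12 fits without 1 sample). The main luminal keratins KRT8, KRT18 and KRT19 had log2 fold changes of -0.28, 0.02 and -0.25. Of 17 epithelial junction genes, ESRP1, a splicing regulator of epithelia, and CLDN3, a claudin, were called higher (2.55-fold and 2.5-fold) and 0 lower. FOXA1 siRNA alone gave log2 fold changes of 1.14 and 0.615 for ESRP1 and CLDN3, and lapatinib alone 0.29 and 0.91. Of 11 mesenchymal genes, 3 were called higher and 3 lower. FN1, encoding fibronectin, fell from 7724, 9381 and 6756 to 3033, 2963 and 2446 (2.77-fold lower, adjusted p = 2.07e-05), and ITGA5, the fibronectin receptor subunit, was 7.83-fold lower, while CD44, a hyaluronan receptor, was 4.58-fold higher. Log2 fold changes with FOXA1 siRNA alone and with lapatinib alone were -1.63 and 0.11 for FN1, -1.98 and -0.60 for ITGA5 and 1.78 and 0.74 for CD44. VIM and ZEB1 did not reach the count minimum.

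Interferon-stimulated genes were called higher in 9 and lower in 1 of 20 tested, with a median of 0.79 (0.61 with lapatinib alone and 0.26 with FOXA1 siRNA alone). Of the 9, OAS1, an antiviral RNA sensor enzyme, had 41.4, 105 and 39.3 counts in the controls and 243, 374 and 263 with both (4.83-fold, adjusted p = 0.000587; 7.32-fold without control replicate 2), and IFIH1, the RNA sensor MDA5, rose 2.64-fold, whereas IFIT1, IFIT2, IFIT3, RSAD2 and MX2 had means of at most 42.7 counts in either group. USP18, an inhibitor of interferon signaling, fell by 1.36 (adjusted p = 7.93e-06). Among 9 NF-κB genes and chemokines tested, ICAM1 was called lower and 0 were called higher. Among 14 BCL2 family genes, BBC3, encoding the pro-apoptotic PUMA, was called higher (2.53-fold, adjusted p = 0.000196) and BID, another pro-apoptotic member, lower (2.03-fold). BCL2L1, encoding the anti-apoptotic BCL-XL, had 3476, 3352 and 3388 counts in the controls and 4387, 4849 and 4626 with lapatinib. It had 1747, 1899 and 1853 with FOXA1 siRNA and 1666, 2049 and 1706 with both (log2 fold change -0.89 ± 0.08 over control, adjusted p = 2.13e-05). The combined level over FOXA1 siRNA alone was -0.01 ± 0.08 on the log2 scale (adjusted p = 0.91).

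In lysosome and autophagy genes, 15 of 20 passed the test as higher at any fold, beside 33.9% of all genes, and 2 as lower. With the fold minimum 2 were called higher, near the share of all genes. The median was 0.63 (0.53 with lapatinib alone and 0.13 with FOXA1 siRNA alone). LAMP2, a lysosomal membrane protein, rose 2.8-fold (adjusted p = 4.89e-07) after 0.61 with lapatinib and 1.19 with FOXA1 siRNA. The ATF4 stress genes had a median of -0.03, with 2 of 20 called higher and 1 lower. Of these, CHAC1, a glutathione-degrading enzyme, rose 3.67-fold, the mTORC1 inhibitor DDIT4 2.3-fold, and PSAT1, an enzyme of serine synthesis, fell 3.18-fold.

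In the lists of ribosome biogenesis, cholesterol synthesis and glycolysis, every member that passed the interaction test in the main edgeR fit was positive, which means that its combined level was above the sum of the 2 single changes on the log2 scale. This was not particular to them: it also held for 5 DNA replication genes. It held too for 2 genes each of the mitosis, G1 cyclin, ATF4 stress, NF-κB, keratin and epithelial junction lists. Of all genes in that test, 3.99% were positive and 3.2% negative. The alternative test DESeq2, also without a block, gave 6 positive and 2 negative in the glycolysis list and 0 negative in the ribosome and cholesterol lists. Of 20 ribosome biogenesis genes, 12 passed the test as lower and 2 as higher, with RRP12 alone past the fold minimum, and the median was -0.3 against -0.7 with lapatinib alone and 0.05 with FOXA1 siRNA alone. In the interaction test 11 of the 20 were positive and 0 negative. DKC1, the pseudouridine synthase dyskerin, had 3965, 4354 and 4047 counts in the controls, 2226, 2195 and 1909 with lapatinib, 5337, 5307 and 5083 with FOXA1 siRNA and 4056, 4156 and 3877 with both. Its combined and control levels differed by -0.01 ± 0.06 (adjusted p = 0.943), and its interaction was 0.59 ± 0.09 (adjusted p = 0.00245). BOP1, a factor of the large ribosomal subunit, had an interaction of 1.09 ± 0.25 (adjusted p = 0.0224), lost in 3 of the 12 fits without 1 sample. In those fits the call was lost 11 times for RRP12 and 5 times each for NOP58 and RRS1, and never for the other positive members.

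Of 22 cholesterol synthesis genes tested, 9 were called lower and 0 higher, with a median of -0.68 (-0.66 with lapatinib alone and -0.27 with FOXA1 siRNA alone). INSIG1, a sterol-sensing protein of the endoplasmic reticulum, fell from 1356, 1404 and 1416 to 378, 364 and 450.4 (log2 fold change -1.78 ± 0.09, adjusted p = 1.45e-06), against -2.10 with lapatinib alone, and its interaction was 0.66 ± 0.13 (adjusted p = 0.0105). DHCR7, a sterol reductase of the last steps of the pathway, had a log2 fold change of -1.59 with both treatments, -1.81 with lapatinib and -0.07 with FOXA1 siRNA. In the interaction test 6 of 22 were positive and 0 negative. INSIG1 kept the call in all 12 fits without 1 sample, while DHCR7, FDPS and EBP lost it in 10 and IDI1 in 8. Of 20 glycolysis genes, 4 were called lower, 16 passed the test as lower at any fold, and 6 had a positive interaction. PFKM and ENO1 kept the interaction call in all 12 fits without 1 sample. PFKP lost it in 9, ALDOA in 8, SLC2A1 in 3 and ALDOC in 1. PFKFB4, a regulator of phosphofructokinase, fell from 386, 476 and 458 to 147, 129.7 and 114 (3.32-fold lower, adjusted p = 1.02e-05), although its single changes were -0.44 and -0.45. Its interaction of -0.84 ± 0.26 did not pass the test (adjusted p = 0.0717) but passed it with the replicate number as a block. With that block the interactions were 18 positive and 1 negative in the ribosome list, 12 and 1 in the cholesterol list and 12 and 2 in the glycolysis list. Of the 14012 genes of the interaction test, 1561 were then positive and 1292 negative.

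**Figure D3:**
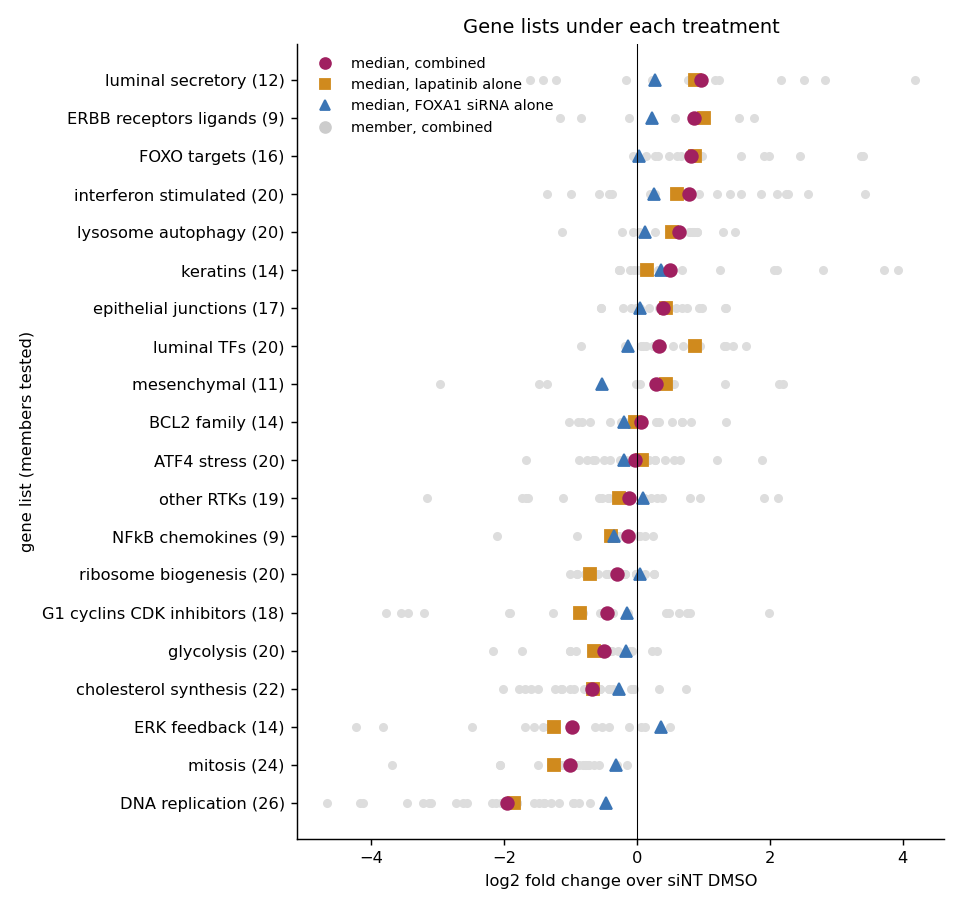
Median log2 fold change over control of each gene list with both treatments, with lapatinib alone and with FOXA1 siRNA alone, and in grey each member with both treatments. The combined medians of the DNA replication (-1.95) and mitosis (-1.01) lists lay lowest; the 3 comparisons share the control samples.

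**Figure D4:**
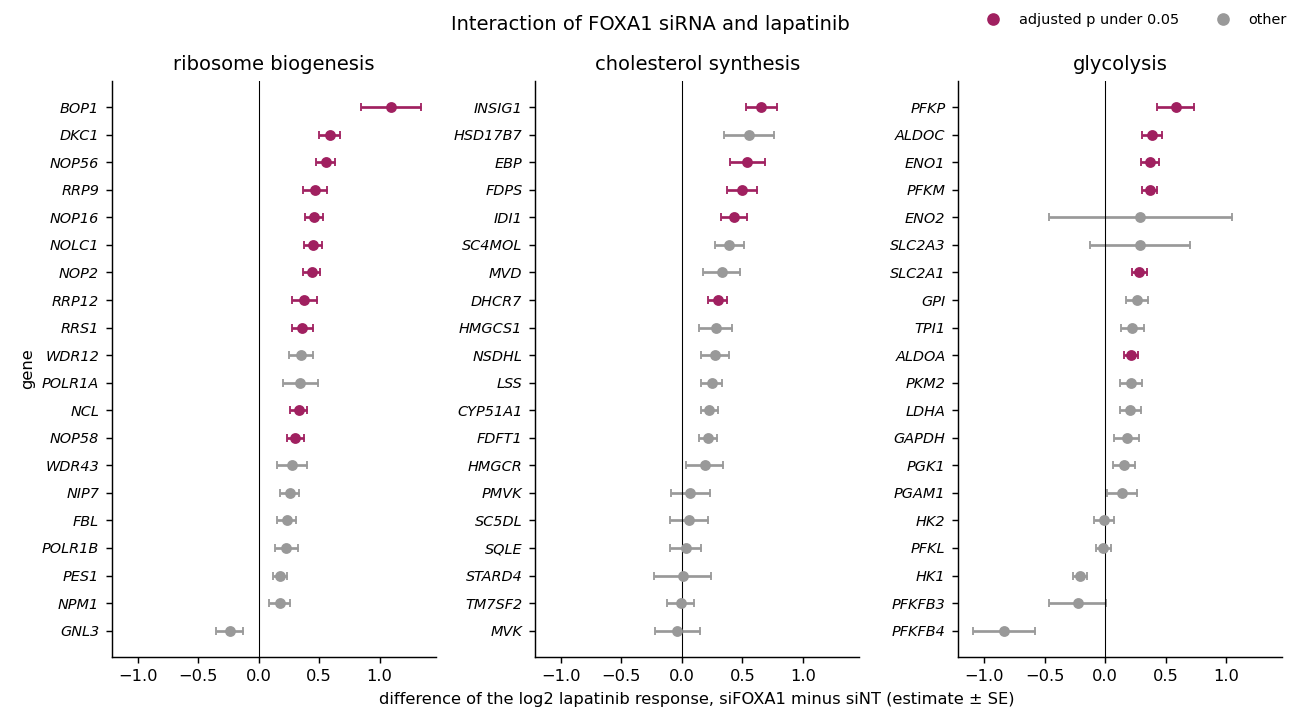
Difference of the log2 lapatinib response between FOXA1 siRNA and NT siRNA (estimate ± SE) for the 20 ribosome biogenesis genes, 20 of the 22 cholesterol synthesis genes and the 20 glycolysis genes tested, with those at an adjusted p under 0.05 in colour. Every coloured gene lay above 0.

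Genes with a large change when both treatments were given and small ones with either alone were sought next. A gene was counted when it was called in the combined samples, had a log2 fold change under 0.5 in size with lapatinib alone and with FOXA1 siRNA alone, and passed the interaction test in the direction of the combined change. Of 2576 called genes, 65 (23 higher and 42 lower) met the first 2 conditions, and 13 (2 higher and 11 lower) met all 3. Since the same values chose these genes, they are given as a description with no test. A further 182 called genes had too few counts to be tested in one of the single comparisons and could not be counted.

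The sequence before the start of the 2 genes that rose and of the gene with the largest fall is shown, as these carry the combination-only pattern. The 250 bases before the first start that the RefSeq promoter table (GRCh38.p14) lists for each gene are given on the strand of the gene, 5′ to 3′, all in lower case because neither GTAAACA nor GTCAACA, 2 spellings of a forkhead motif, occurs in them on either strand.
RHOBTB3, chr5:95731086-95731335, plus strand: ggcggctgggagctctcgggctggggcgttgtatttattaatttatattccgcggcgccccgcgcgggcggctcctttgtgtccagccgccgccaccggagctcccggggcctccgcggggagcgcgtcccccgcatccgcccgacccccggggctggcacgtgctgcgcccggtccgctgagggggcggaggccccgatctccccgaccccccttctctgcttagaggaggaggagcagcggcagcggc
KCTD3, chr1:215567054-215567303, plus strand: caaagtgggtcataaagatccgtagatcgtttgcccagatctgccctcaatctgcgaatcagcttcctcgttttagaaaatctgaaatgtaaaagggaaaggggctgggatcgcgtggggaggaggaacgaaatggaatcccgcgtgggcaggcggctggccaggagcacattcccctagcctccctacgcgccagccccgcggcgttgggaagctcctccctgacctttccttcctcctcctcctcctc
ARHGAP26, chr5:142770127-142770376, plus strand: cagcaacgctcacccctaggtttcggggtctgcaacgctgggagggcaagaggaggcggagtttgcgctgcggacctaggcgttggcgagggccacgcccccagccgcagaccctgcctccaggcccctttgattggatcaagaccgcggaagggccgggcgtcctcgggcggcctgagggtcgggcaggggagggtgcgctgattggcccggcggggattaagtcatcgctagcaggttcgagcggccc

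For RHOBTB3 the table lists 1 start, and the window before it lies inside the annotated span of the gene, chr5:95717624-95796361, so it is not the sequence upstream of the whole gene. Of the 13 genes, 12 were in the promoter table with 21 listed starts, and 0 of these 21 windows held the letters, beside 4.84% of all 35116 windows of the table. The absence says only that these letters are not in these windows.

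RHOBTB3, a BTB domain ATPase, had 1970, 1830 and 1882 counts in the controls, 2482, 2511 and 2291 with lapatinib, 2162, 2000 and 2118 with FOXA1 siRNA and 4491, 3765 and 4204 with both. The combined samples all exceeded every other sample, and the log2 fold changes were 0.38, 0.16 and 1.16 ± 0.07. Mean TPM of RHOBTB3 was 25.8 in the controls, 29.1 with lapatinib, 27.0 with FOXA1 siRNA and 49.1 with both, a smaller rise than by count. KCTD3, a BTB domain protein, had 5947, 5897 and 5951 counts in the controls and 11971, 12170 and 12156 with both, with log2 fold changes of 0.41 with lapatinib, 0.38 with FOXA1 siRNA and 1.06 ± 0.04 with both. Each single change of KCTD3 had an adjusted p of 0.000115, and its interaction was 0.28 ± 0.05. The limit is one of size: for 5 of the 13 genes, KCTD3, RHOBTB3, ARHGAP26, C2orf54 and SLITRK5, both single changes passed the test, for ETNK2 the change with lapatinib and for SIVA1 that with FOXA1 siRNA passed it, and for 6 genes neither did.

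ARHGAP26, a GTPase-activating protein (GRAF1), had 494, 516 and 532 counts in the controls, 377, 399 and 383 with lapatinib, 383, 349 and 406 with FOXA1 siRNA and 133, 129 and 122 with both. It was 3.93-fold lower with the combination, with an interaction of -1.16 ± 0.12. S1PR3, a receptor for sphingosine-1-phosphate, had 344, 394 and 319 counts in the controls, 307, 275 and 287 with lapatinib, 321, 410.3 and 279.8 with FOXA1 siRNA and 108, 119 and 97.2 with both (3.2-fold lower). DOK4, a docking protein of receptor kinases, had 380.2, 464 and 339 counts in the controls, 296, 349 and 322 with lapatinib, 369.7, 476 and 386 with FOXA1 siRNA and 127, 156 and 92.1 with both (3.09-fold lower). In these genes the 3 combined samples lay under all 9 others.

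PARD6G, of the PAR6 cell polarity proteins, had 147, 145 and 145 counts in the controls, 119, 124 and 138 with lapatinib, 151, 154 and 145 with FOXA1 siRNA and 51.7, 55.7 and 59.4 with both (2.56-fold lower). C2orf54, named MAB21L4 in RefSeq, moved in opposite directions with the single treatments (0.39 with lapatinib and -0.41 with FOXA1 siRNA) and went from 3852, 4448 and 4198 to 1465, 2132 and 1193 with both. SLITRK5, a transmembrane protein of neurons, went from 521, 526 and 535 to 212, 196 and 183 (2.62-fold lower), ETNK2, an ethanolamine kinase, from 1411, 1862 and 1368 to 548, 760.2 and 542 (2.46-fold lower), and SIVA1, a pro-apoptotic protein, from 987, 830.0 and 1049 to 425, 465 and 451 (2.09-fold lower). Mean TPM of SIVA1 was 62.1 in the controls, 37.1 with lapatinib, 48.8 with FOXA1 siRNA and 27.7 with both. By TPM lapatinib alone thus lowered SIVA1 more than by count (log2 fold change -0.11), so its place in the set holds for counts only. The cause of this difference was not tested. The 3 other combination-only genes had a mean under 100 counts, among them PJA1, a ubiquitin ligase, with a log2 fold change of -1.68 ± 0.21 and MGC12982 with -1.57 ± 0.25. MGC12982 is FOXD2-AS1 in RefSeq, an antisense RNA, and the strand setting of the counting is unknown, so its reads and those of genes on the other strand cannot be told apart.

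**Figure D5:**
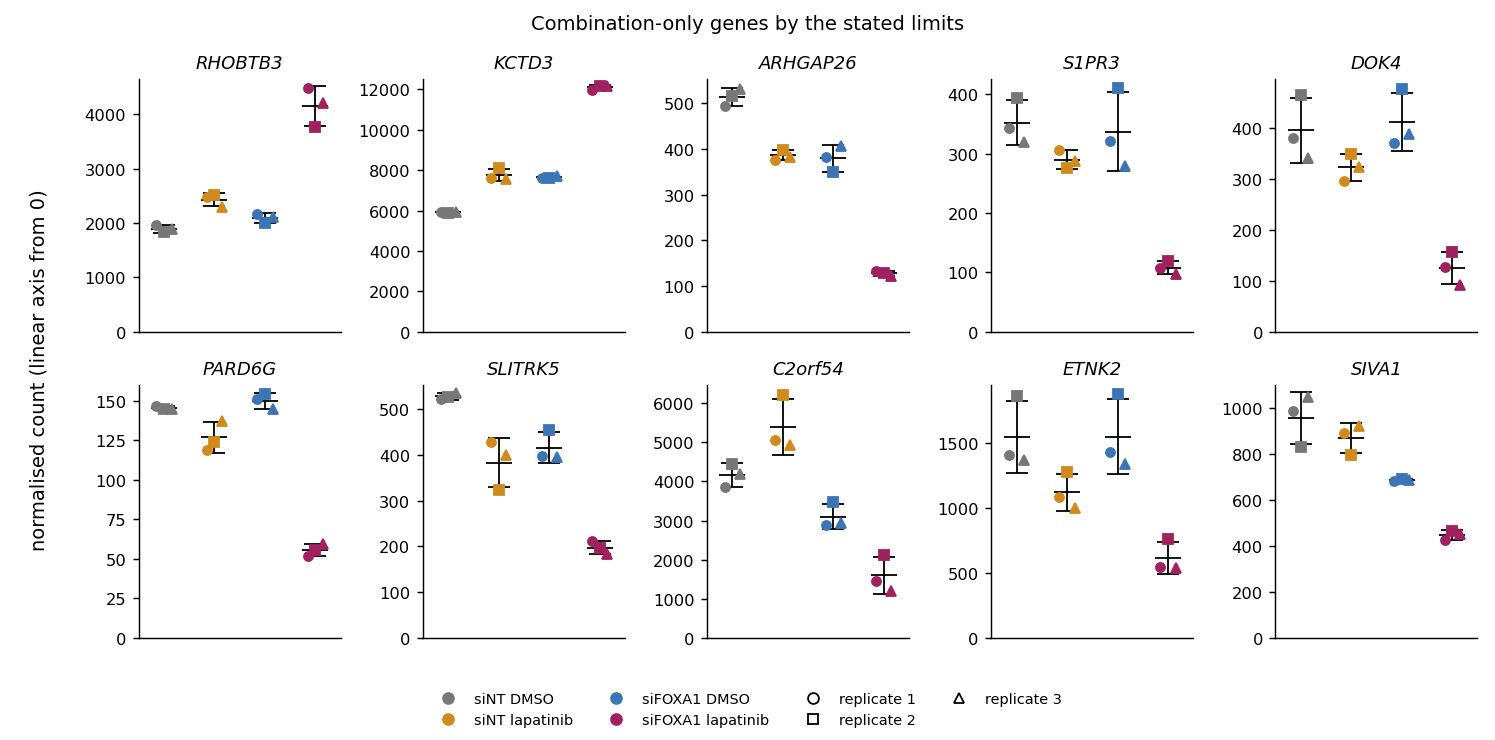
Normalised counts of the 10 combination-only genes with a mean of at least 100 counts in each of the 12 samples, on linear axes from 0, with the mean ± SD of each group. The combined samples lie above all others for RHOBTB3 and KCTD3 and below all others for the 8 that fell.

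The set depends on its limits. With an adjusted p of at least 0.05 in each single treatment in place of the limit of 0.5, 9 genes were counted, of which 6 were shared, PARD6G, DOK4, S1PR3, PJA1 and MGC12982 among them. Just inside the limit were SIVA1, with a larger single change of 0.46, and ETNK2 with 0.44, and just outside PLXND1 with 0.52, MPHOSPH6 with 0.52 and SRCIN1 with 0.54. With the replicate number as a block 31 genes were counted, all 13 included, and with replicates 1 and 3 alone 24 were counted, 11 of them shared. Leaving out each of the 12 samples in turn kept 7 genes every time (ARHGAP26, DOK4, KCTD3, MGC12982, PARD6G, RHOBTB3 and S1PR3), whereas SIVA1 and SLITRK5 were kept in 3 and ETNK2 in 2 of the 12.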

How the data were processed

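RNAseq of SKBR-3 cells was analysed in 12 samples, 3 in each of 4 groups taken from the labels. Per library, the authors deposited expected counts of each gene, which are estimated reads and need not be whole, together with TPM, FPKM and a normalized signal scaled to the upper quartile of the library. The submitters' processing notes name RSEM, DESeq, R 3.2.2 and DESeq2 1.12.3, whereas the methods name alignment to hg38 with STAR and quantification with Salmon. The library kit differs between fields of the labels (KAPA Stranded mRNAseq or Illumina TruSeq), and the strand setting of the counting is unknown. Replicates were deposited separately.

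Expected counts (87.5% to 88.1% whole per library) were rounded and tested with edgeR 4.0.16 in R 4.3.3 by its quasi-likelihood test after TMM normalization, leaving out genes under 10 counts in every sample fitted. Each comparison of 2 groups used its own 6 samples and the interaction all 12. A call was a p under 0.05 after Benjamini-Hochberg adjustment and, except in the interaction, a change of 1 or more on the log2 scale. Standard errors are the log2 fold change divided by the square root of its F statistic. Library totals were 25749578 to 32271850 counts, and counting error is a lower limit on the spread of low genes, since PCR copies do not count as separate molecules. TPM was used only for marker sums and beside the counts of RHOBTB3 and SIVA1. The fits were tested on simulated data with known changes. Exact permutation of 3 samples against 3 cannot give a p under 0.1, so no such test was used.

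Between groups, the deviations of samples from the mean of their group were correlated for every pair with the same number (r = 0.195 to 0.617 over 11512 genes), so the replicate numbers were taken to pair the samples, and a fit with the number as a block was run. Pairs with different numbers had a mean r of -0.171, but control replicate 1 and NT lapatinib replicate 3 reached 0.234. Deviations cancel out within a group, so the negative sign of that mean follows from the same-number values and says nothing more on pairing. The main calls come from fits without the block, and the blocked fit is an alternative. What a number stands for is not given in the sources used here.

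The members and gene lists were chosen with earlier results of these data known. Named were the genes that the study follows, the 8 largest called changes per direction with no overlap and a mean count of at least 100, the combination-only genes with that mean (up to 8 per direction), and of each list up to 4 members with the largest change at that mean, plus members called in the interaction. Other members and the 3 combination-only genes under that mean were picked out after their values were seen.

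As alternatives, DESeq2 1.42.0, normalization by RLE or upper quartile, other filters, all 12 samples in 1 model, the block, leaving out each sample, and other limits for single treatments were tried. RefSeq promoters were found for 79.1% of the genes tested, under the 80% needed, so letters were counted only over the whole table and the combination-only genes. Tables and plots used Python 3.11.15, pandas 2.3.3 and matplotlib 3.10.9. A few genes are not reported here by name; they remain in the counts and medians, but not in the list of single interactions or in the plots of named genes.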

Additional observations from a re-analysis of the deposited data

Results flagged for a closer look

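Listed here are 70 genes named by the rule that passed edgeR's interaction test, which means that their log2 lapatinib response with FOXA1 siRNA differed from that with NT siRNA; 37 of them did so in all 12 fits that left out 1 sample and 33 lost the call at least once. The values below are the response with FOXA1 siRNA minus that with NT siRNA, on the log2 scale.

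Among the genes that the study follows, the difference was -0.31 for ERBB2, -0.66 for VTCN1, 0.52 for MYC, -0.24 for DDR1, -0.79 for GATA3 and -0.37 for FOXO3. For 2 genes with large combined changes it was -0.87 for MUC15 and -2.92 for PRKAR2B. For the combination-only genes, whose choice used this value, it was 0.63 for RHOBTB3, 0.28 for KCTD3, -1.16 for ARHGAP26, -1.36 for S1PR3, -1.42 for DOK4, -0.61 for SLITRK5, -1.23 for PARD6G, -1.33 for C2orf54, -0.87 for ETNK2 and -0.48 for SIVA1.

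For further luminal factors and the secretory gene PIP, it was -0.53 for KLF5, -0.74 for ELF5, -0.62 for EHF, -0.44 for GRHL1 and -1.93 for PIP. For receptor kinases, an early response gene and FOXO targets it was -0.85 for INSR, 0.36 for MET, -0.61 for IER3, -0.93 for FBXO32 and -0.73 for TXNIP. For cell cycle genes all values were positive, 0.80 for E2F1, 0.42 for CDK4, 0.73 for MCM7, 0.66 for CDC6, 0.42 for POLE, 0.79 for RFC3, 0.70 for RFC4, 1.5 for CDK1 and 1.27 for UBE2C.

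In ribosome biogenesis it was 0.38 for RRP12, 0.55 for NOP56, 0.46 for NOP16, 0.44 for NOP2, 0.30 for NOP58, 0.33 for NCL, 0.59 for DKC1, 0.36 for RRS1, 0.46 for RRP9, 1.09 for BOP1 and 0.45 for NOLC1. In cholesterol synthesis it was 0.66 for INSIG1, 0.30 for DHCR7, 0.43 for IDI1, 0.50 for FDPS and 0.54 for EBP. In glycolysis it was 0.58 for PFKP, 0.28 for SLC2A1, 0.37 for PFKM, 0.22 for ALDOA, 0.39 for ALDOC and 0.37 for ENO1.

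Members of the stress, lysosome, chemokine and survival lists had 0.29 for SLC7A5, 0.62 for VLDLR, -0.31 for LAMP2, -0.34 for WIPI1, 1.5 for CCL2, 1.42 for BIRC3 and -0.46 for BCL2L1. Epithelial genes had 0.68 for KRT15, 1.44 for KRT13, 0.53 for EPCAM and 1.41 for CLDN1.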

How the results depend on the processing

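The counts of genes called higher and lower in the combined samples stayed within 1.5 times under RLE and upper-quartile normalization, DESeq2, both other filters, 1 model of all 12 samples, the replicate block and replicates 1 and 3 alone (chosen after seeing the data), and ranged from 1230 to 1466 and from 1118 to 1259 when 1 sample was left out; without a fold minimum they were 4678 and 4488. Combination-only genes, 2 higher and 11 lower, came to 8 and 23 with a replicate block, 7 and 17 with replicates 1 and 3 alone, 23 and 42 with no interaction required, and 0 and 4 with a single-treatment limit of 0.3; with an adjusted p of at least 0.05 in each single treatment, 7 were lower. Without 1 sample they ranged from 2 to 5 and from 6 to 16: 5 were higher without combined or lapatinib replicate 2, and 6 or 7 lower without control replicate 1, combined replicate 3 or lapatinib replicate 1. Interaction counts, 559 positive and 449 negative, were 1561 and 1292 with the block and 1426 and 1092 with replicates 1 and 3 alone. They ranged from 300 to 782 and from 242 to 583 without 1 sample, and both fell by over 1.5 times without replicate 1 or 3 of the FOXA1 siRNA or control samples, combined replicate 1 or lapatinib replicate 3, as the negative count did without lapatinib replicate 1. A group left with 2 samples shared the spread of the others. The block changed no other call of a named gene in the combined comparison and added 18 named interactions. Over the 153 named genes, no combined call changed under the other settings, where 7 were not tested with 10 counts in every sample; leaving out 1 sample added a call 10 times and lost one 6 times, and replicates 1 and 3 alone added 5. The cause of these differences was not tested. Depth limits genes of few counts: 182 called genes were not tested in a single-treatment fit and could not be placed as combination-only.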
